A study of Mus musculus with 2 samples.

Results

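The genes described here build and cross-link the elastic fibre. They are Eln (elastin), the microfibril genes Mfap2, Mfap5 and Fbn1, the fibulins Fbln1, Fbln2 and Fbln5, and the lysyl oxidases Lox, Loxl1 and Loxl2. They were chosen by function, as all probe sets that the platform annotation assigns to these 10 symbols. Such probe sets number 20 of the 45101 on the array. Of them, 18 carry 1 symbol and belong to 8 of the 10 genes. Both probe sets of Loxl2 also carry the symbol Gm21451, and no probe set is named here for Fbn1, so these 2 genes were not analysed here.

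The cells were NIH3T3, an immortalised mouse fibroblast line, grown in DMEM with 10% serum. The CCR4b RNAi culture had been infected with a retrovirus carrying a hairpin that targets CCR4b (Cnot6l), a deadenylase subunit of the CCR4-NOT complex that shortens mRNA poly(A) tails. The control RNAi culture had been infected with a retrovirus of the same kind carrying the control hairpin. The labels give neither the time after infection nor the hairpin sequences. Total RNA of each culture was hybridised to 1 Affymetrix Mouse Genome 430 2.0 array, so there is no replicate error and no test, and each difference below is one between 2 single arrays. Less RNA per cell and fewer cells making it cannot be told apart in such bulk samples.

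Elastic fibres give skin, lung and artery their recoil. Fibroblasts and smooth muscle cells secrete soluble tropoelastin, which is deposited on a scaffold of fibrillin microfibrils with the help of fibulins. Lysyl oxidases, copper-dependent enzymes, then oxidise lysine side chains so that elastin and collagen chains become covalently cross-linked. Transcripts of several of these genes are abundant in cultured fibroblasts, whereas elastin itself is made mainly during development.

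Fbln2 was the only measured member with at least a 1.5-fold difference on the probe set that stood for its gene, and it was higher in the CCR4b RNAi culture. That is 1 of 7 members, where 11.3% of all measured genes were at least 1.5-fold higher. With the arrays scaled to equal medians, 0 of the 7 were. Lox and Loxl1, the cross-linking enzymes, differed by 1.03-fold and 1.02-fold on their brightest probe sets. Mfap5 and Fbln5 were 1.18-fold and 1.21-fold higher, and Eln and Fbln1 were dim with small differences. Mfap2 was lower on a dim probe set that passed below the floor after CCR4b RNAi, while its other probe set was below the floor on both arrays.

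The signals are linear probe-set intensities in arbitrary units, normalised by the authors. The 50th percentile of the values, 8.07 units, served as a floor in place of detection calls. Lower values were raised to it before the log2 ratio, CCR4b RNAi over control, was taken. A gene was measured if the probe set standing for it, the one with the highest mean log2 signal, reached the floor on at least 1 array. This held for 7 of the 8 members with probe sets of their own, all 7 above the floor on both arrays, and for 11915 of 18194 genes on the array. Levels of different genes were not ranked, because each probe set binds its target with its own efficiency. Signals summed over marker lists are given only to compare the arrays.

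Cnot6l, the targeted gene, read 43.0 units on its brightest probe set in the CCR4b RNAi culture and 102 units in the control (2.38-fold lower), and it was lower on 4 of 4 probe sets. For Actb the signal near the 3' end divided by that near the 5' end, a measure of RNA integrity, was 1.46 after CCR4b RNAi and 1.35 in the control. That of Gapdh was 0.819 after CCR4b RNAi and 0.824 in the control. Among fibroblast markers, 9 of 9 were measured. Ddr2 was 2.00-fold and Col1a1 1.52-fold higher after CCR4b RNAi, Thy1 was 1.70-fold lower and the other 6 lay within 1.5-fold. Of 5 endothelial markers 0 were measured, and of 5 epithelial markers only Epcam was, on a probe set open to cross-hybridisation. Of 6 smooth muscle markers, Acta2, Tagln and Smtn were measured, whereas Myh11, Cnn1 and Des were below the floor on both arrays. The signal summed over these 6 was 837 units after CCR4b RNAi and 571 units in the control. Acta2, on a probe set open to cross-hybridisation, read 775 units after CCR4b RNAi and 522 units in the control (1.49-fold higher). Of 5 macrophage markers 3 were measured. Cd68 read 9.42 units after CCR4b RNAi and 24.0 units in the control (2.55-fold lower), Adgre1 and Csf1r had log2 ratios of -0.58 and -0.073, and Ptprc and Itgam were below the floor on both. The part of these markers in the differences below was not tested.

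The stretch before the transcription start is shown for Fbln2, the member past the 1.5-fold threshold, and for Fbln5, a related fibulin that stayed within it. Each is the 250 bases before the upstream-most start in RefSeq (GRCm38.p6), read 5′ to 3′ on the gene's own strand. Fbln2 lies on the plus strand at chr6:91212514-91212763 and Fbln5 on the minus strand at chr12:101819120-101819369. Capitals mark the GC box, the letters GGGCGG or their reverse complement CCGCCC, which the transcription factor SP1 is known to bind.
Fbln2: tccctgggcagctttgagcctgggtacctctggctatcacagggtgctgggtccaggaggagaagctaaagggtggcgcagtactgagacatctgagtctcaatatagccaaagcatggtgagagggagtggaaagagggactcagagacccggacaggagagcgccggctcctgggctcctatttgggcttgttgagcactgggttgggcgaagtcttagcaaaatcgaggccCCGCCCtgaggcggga
Fbln5: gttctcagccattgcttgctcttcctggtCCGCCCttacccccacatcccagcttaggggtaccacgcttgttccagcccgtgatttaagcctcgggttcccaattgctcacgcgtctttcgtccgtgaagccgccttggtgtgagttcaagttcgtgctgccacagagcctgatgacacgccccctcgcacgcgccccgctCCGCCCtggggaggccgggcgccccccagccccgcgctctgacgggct
The Fbln2 stretch holds 1 GC box, starting 16 bases before the transcription start, and that of Fbln5 holds 2, starting 48 and 221 bases before it. Of 32851 stretches of the same length in the RefSeq promoter table, 32.7% hold at least 1. Neither printed stretch holds TATAAA, the AP-1 letters TGAGTCA, the SMAD letters CAGAC or the TEAD letters GGAATG on either strand, which occur in 12.4%, 4.46%, 42.2% and 12.6% of all stretches. A stretch of the same length before another Fbln5 start holds 0 GC boxes and 2 matches to the SMAD letters. These matches describe the letters in the window and are not evidence of binding. Entries in the table were matched by symbol for 5 of the 10 genes.

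**Figure D1:**
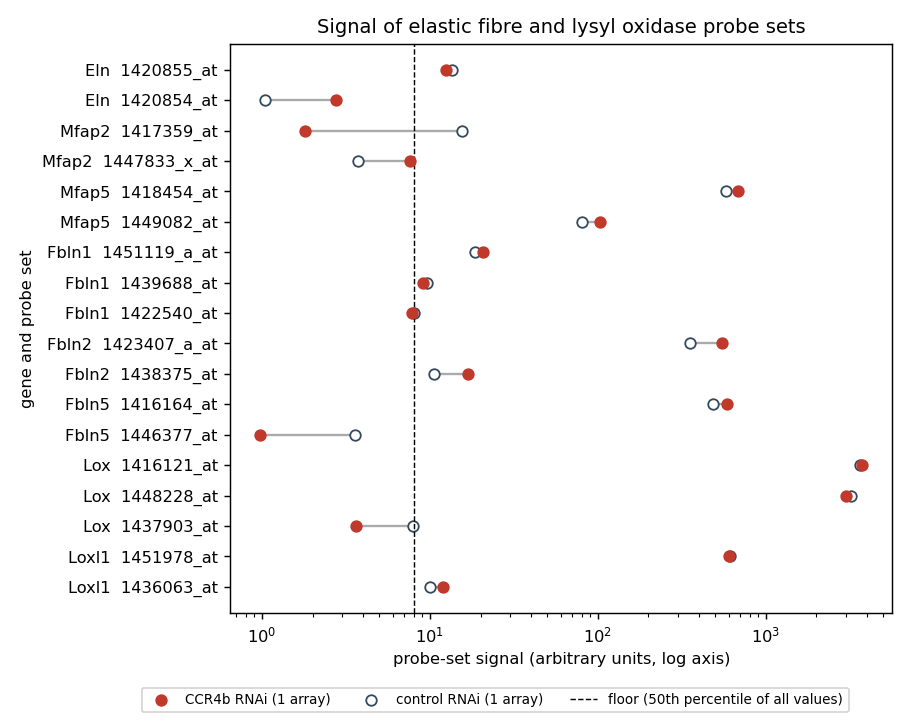
Signal of the 18 probe sets with 1 symbol, in arbitrary units on a log axis, with filled points for the CCR4b RNAi array, open points for the control RNAi array (1 array each) and a dashed line at the floor of 8.07 units. Both Fbln2 probe sets lie to the right after CCR4b RNAi, the bright Lox and Loxl1 points nearly coincide, and the widest gaps belong to probe sets with at least 1 value below the floor.

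Elastin, the core protein of the fibre, gave a weak signal in these fibroblasts. Its brighter probe set (1420855_at) read 12.4 units after CCR4b RNAi and 13.6 units in the control. The other (1420854_at) read 2.75 units after CCR4b RNAi and 1.05 units in the control, below the floor on both arrays. On the brighter one the log2 ratio was -0.13 (1.09-fold lower), a difference of 1.18 units. Genes of like signal (1 of 10 equal classes) scattered by 0.68 log2 units (robust SD, from the median absolute deviation) around a median of 0.10. The Eln ratio thus lay well inside that scatter.

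Of the microfibril genes, Mfap5 was above the floor on both of its probe sets, whereas the reading of Mfap2 was uncertain. MFAP5, also called MAGP-2, is a small glycoprotein bound to fibrillin microfibrils. Its brighter probe set read 680 units after CCR4b RNAi and 576 units in the control, and its other one read 103 units after CCR4b RNAi and 80.8 units in the control. Both were higher in the CCR4b RNAi culture, with log2 ratios of 0.24 (1.18-fold) and 0.36 (1.28-fold), short of the 1.5-fold threshold. Among genes of the brightest class, 14.4% had a higher ratio than Mfap5.

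Mfap2 encodes MAGP-1, the other microfibril-associated glycoprotein of this pair. The probe set 1417359_at read 1.80 units after CCR4b RNAi and 15.5 units in the control. Its value after CCR4b RNAi is below the floor, so the difference is given as at least 1.91-fold lower (log2 ratio -0.94). The probe set 1447833_x_at, whose suffix marks possible cross-hybridisation, read 7.56 units after CCR4b RNAi and 3.71 units in the control. Both of its values are below the floor and their unfloored ratio has the opposite sign. That second probe set had the marginally higher mean log2 signal and so stood for the gene, which is why Mfap2 is not among the 7 measured members.

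The fibulins are calcium-binding glycoproteins that link elastin, fibrillin and basement membrane proteins. Fbln2 encodes fibulin-2, found at the interface of microfibrils and elastin. Its bright probe set (1423407_a_at) read 550 units after CCR4b RNAi and 354 units in the control. Its dim one (1438375_at) read 16.8 units after CCR4b RNAi and 10.6 units in the control. The gene was higher in the CCR4b RNAi culture on both probe sets, 1.55-fold (log2 ratio 0.64) and 1.59-fold (0.67). Over 4550 genes that had 2 or more probe sets reaching the floor in each culture, the 2 brightest differed by a median of 0.28 log2 units, whereas those of Fbln2 differed by 0.033. Both probe sets read the same RNA, so their likeness does not measure the spread between cultures. The dim one had signals like those of Eln, where genes scattered by 0.68 around a median of 0.10, and its ratio lay inside that scatter. In the brightest of 10 signal classes, where ratios had a median of -0.17 and a robust SD of 0.36, 4.11% of genes had a higher ratio than Fbln2. Scaling the arrays to equal medians ended the 1.5-fold call (log2 ratio 0.54).

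Fbln5 encodes fibulin-5, which binds tropoelastin and lysyl oxidases and is required for elastic fibre assembly in mice. It read 586 units after CCR4b RNAi and 484 units in the control on its bright probe set, and 0.978 units after CCR4b RNAi and 3.59 units in the control on a probe set below the floor. On the bright one it was 1.21-fold higher (log2 ratio 0.28). Of genes in the brightest class, 12.8% had a higher ratio.

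Fbln1 encodes fibulin-1, a component of elastic fibres and basement membranes. Its 3 probe sets were dim. They read 20.6, 9.04 and 7.81 units after CCR4b RNAi and 18.6, 9.66 and 7.99 units in the control. On the pair above the floor the log2 ratios were 0.15 and -0.096, of opposite sign, so no direction can be given for this gene. The 3 differences were at most 1.11-fold.

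The lysyl oxidases oxidise lysines of elastin and collagen. Lox encodes the founding member of the family. Its brightest probe set read 3753 units after CCR4b RNAi and 3631 units in the control. The other bright one read 3013 units after CCR4b RNAi and 3219 units in the control. The log2 ratios of 0.048 (1.03-fold) and -0.095 (1.07-fold) have opposite signs and are smaller than the robust SD of 0.36 in the brightest class. The remaining Lox probe set, below the floor on both arrays, read 3.61 units after CCR4b RNAi and 7.92 units in the control.

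Loxl1 encodes a lysyl oxidase that acts with fibulin-5 on elastin. It read 605 units after CCR4b RNAi and 615 units in the control on its bright probe set, a log2 ratio of -0.024. A dim probe set read 12.0 units after CCR4b RNAi and 10.0 units in the control, 1.20-fold higher. The sign of the Lox and Loxl1 ratios turned with the scaling of the arrays, over ranges of -0.046 to 0.18 and -0.12 to 0.15. Neither enzyme passed 1.5-fold under any setting tried. The pair of probe sets shared by Loxl2 and Gm21451 stayed below the floor on both arrays.

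**Figure D2:**
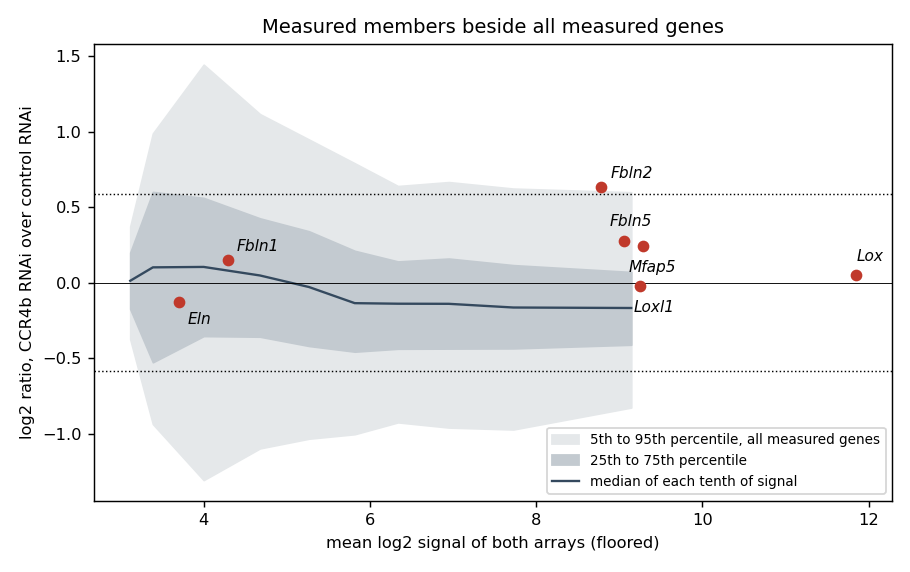
Log2 ratio of CCR4b RNAi over control RNAi against the mean log2 signal of both arrays for the 7 measured members (points, 1 array per group), over the percentile bands and medians of all 11915 measured genes in 10 classes of signal, drawn at each class's median signal. Dotted lines mark 1.5-fold. Fbln2 alone lies above the upper dotted line, and the 5 bright members lie above the median of their class, -0.17.

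As a group the 7 measured members had a median log2 ratio of 0.15, against -0.070 over all 11915 measured genes. At 1.5-fold, 1 of 7 was higher, where 11.3% of all measured genes were, and 0 of 7 were lower, where 14.6% were. At 2-fold, 0 of 7 were higher and 0 lower, where 3.74% and 4.48% of all measured genes were. With each array divided by its median, 1083 genes were at least 1.5-fold higher and 2259 lower, compared with 1352 and 1744 as deposited. The remaining 6 members, 85.7% of the 7, lay within 1.5-fold, as did 74.0% of all measured genes. At the level of probe sets, 12 of the 18 were above the floor on both arrays, 1 on a single array and 5 on neither. Of the 12, 8 had a positive and 4 a negative ratio, with a median of 0.19, and 7 to 10 were positive under the 4 other scalings. Among all measured genes, 54.1% had a ratio no higher than that of Loxl1 (-0.024), so negative ratios were the more common. For Lox (0.048) that share was 59.6%. It was 45.0% for Eln, 67.4% for Fbln1, 73.2% for Mfap5, 75.6% for Fbln5 and 90.2% for Fbln2.

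The 5 bright members, Mfap5, Fbln2, Fbln5, Lox and Loxl1, shared one feature, which is not particular to them. All lay in the brightest class of genes, and the ratio of each was above the median of that class, by 0.14 log2 units for Loxl1 up to 0.80 for Fbln2. In each of the 11 settings tried, the ratio of all 5 was above the median of the class in which each then fell. Eln lay below the median of its class and Fbln1 above it by 0.046. Each class has as many genes above its median as below it. Of the companion genes below, 10 of 10 collagen and hydroxylase genes and 9 of 9 receptor genes lay above their class medians. So did 11 of 14 microfibril, 8 of 10 lysyl oxidase, 10 of 14 TGF-beta and 5 of 9 elastase and inhibitor genes. These are descriptions of 1 pair of arrays, and none of them was tested.

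The companion genes below were chosen by function and, like the members, with earlier results of these arrays known. Their counts past 1.5-fold, in each list, stand beside 11.3% of all measured genes higher and 14.6% lower. Of the list of other fibulins, fibrillins, EMILINs, latent TGF-beta binding proteins and microfibril partners, 14 of 19 were measured. In it 3 were at least 1.5-fold higher, 2 were lower by that factor and the median log2 ratio was 0.21. The other 9 lay within 1.5-fold, among them the following. Efemp1, which encodes fibulin-3, read 1996 units after CCR4b RNAi and 1589 units in the control (log2 ratio 0.33). Emilin1, an elastin-binding glycoprotein, read 89.9 units after CCR4b RNAi and 96.9 units in the control, and Emilin2 read 263 units after CCR4b RNAi and 235 units in the control. Fbn2, Fbln7 and Mfap4 were below the floor on both arrays.

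The genes of the latent TGF-beta binding proteins went both ways. Ltbp1 and Ltbp2 were 2.51-fold and 2.57-fold higher in the CCR4b RNAi culture. Ltbp4, which also assists fibulin-5 in elastin deposition, read 3.13 units after CCR4b RNAi, below the floor, and 27.8 units in the control, at least 3.44-fold lower. Ltbp3 read 562 units after CCR4b RNAi and 543 units in the control. The brighter Hspg2 (perlecan) probe set was 1.55-fold higher and the dimmer one had a log2 ratio of -0.35, and Hmcn1 (hemicentin-1) was 1.68-fold lower at 15.0 units after CCR4b RNAi and 25.2 units in the control.

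Among other genes that act with lysyl oxidase, 10 of 12 were measured, 2 were at least 1.5-fold higher, 0 were lower by that factor and the median log2 ratio was 0.42. Under quantile or loess normalization 4 were at least 1.5-fold higher. Loxl3, another family member, read 145 units after CCR4b RNAi and 83.0 units in the control, 1.75-fold higher. Its paralogue Loxl4 read 12.6 units after CCR4b RNAi and 13.8 units in the control. Bmp1, the proteinase that cleaves the lysyl oxidase propeptide, had a log2 ratio of 0.41, and Pcolce, which enhances procollagen cleavage by BMP1, had 0.44. Of the copper supply, Atp7a, the transporter that loads secreted enzymes, had a log2 ratio of 0.47, the copper chaperone Atox1 0.17 and the importer Slc31a1 -0.32, none past 1.5-fold. Postn (periostin), which promotes activation of lysyl oxidase, was 3.85-fold higher.

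The fibrillar collagens and lysyl hydroxylases supply the other substrate of the lysyl oxidases. All 10 were measured and had ratios above 0 (9 of 10 with the arrays scaled to equal medians or with the median over probe sets), with a median of 0.44. Over all measured genes the median was -0.070. In this list 3 genes passed 1.5-fold upwards and 0 downwards. The number upwards was 1 with the arrays scaled to equal medians and 5 under both quantile and loess normalization. Col1a1 read 1429 units after CCR4b RNAi and 942 units in the control, 1.52-fold higher, while Col1a2 read 3993 units after CCR4b RNAi and 3700 units in the control, 1.08-fold higher. Col5a2 was 1.52-fold higher on its brighter probe set and had a log2 ratio of -0.28 on the dimmer one. Col11a1 was 2.99-fold higher. The lysyl hydroxylases Plod1, Plod2 and Plod3 had log2 ratios of 0.40, 0.37 and 0.047.

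Enzymes that degrade elastin, and their inhibitors, differed in both directions. Of 9 measured among 13, 4 were at least 1.5-fold higher, 1 was lower by that factor and the median log2 ratio was -0.010, a sign that turned in other settings. Mmp2, a gelatinase with elastase activity, read 1423 units after CCR4b RNAi and 588 units in the control (2.42-fold higher), with 2.34-fold on its second probe set. Mmp14, the membrane protease that activates MMP2, was 1.62-fold, 1.86-fold and 1.78-fold higher on its 3 probe sets. Slpi, an inhibitor of neutrophil elastase, was 2.64-fold higher and Ctsk, an elastolytic cathepsin, 2.45-fold higher. Mmp9 was 2.10-fold lower on the probe set that stood for it and 1.27-fold higher on another. The metalloproteinase inhibitors Timp1, Timp2 and Timp3 had log2 ratios of -0.37, -0.22 and -0.010. Mmp12 and Elane, the elastases of macrophages and neutrophils, were below the floor on both arrays.

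The elastin receptor subunits and integrins that bind fibulins and fibrillin had 9 of 10 genes measured. All 9 ratios were above 0 (8 of 9 without _x_at and _s_at probe sets), with a median of 0.50, and 3 were at least 1.5-fold higher (5 under quantile or loess normalization). Over all measured genes the median was -0.070, so ratios above 0 were the less common sign there. Glb1, whose splice variant is the elastin-binding protein, read 77.0 units after CCR4b RNAi and 54.3 units in the control. Its partners Ctsa and Neu1 had log2 ratios of 0.50 and 0.31. Itga8 was 2.74-fold higher with 1.66-fold on its dimmer probe set, and Itgb8 was 6.07-fold higher at 54.1 units after CCR4b RNAi and 8.91 units in the control, close to the floor. Itga5 was 1.84-fold higher on a probe set open to cross-hybridisation, and its other probe set had a log2 ratio of -0.21.

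TGF-beta is a known inducer of elastin and lysyl oxidase in fibroblasts. Of the 14 measured genes of its pathway, 1 was at least 1.5-fold higher, against 11.3% of all measured genes. By that factor 0 were lower, against 14.6%, and the median log2 ratio was 0.12. With the arrays scaled to equal medians these counts were 0 higher and 1 lower. Tgfb2 read 54.7 units after CCR4b RNAi and 35.0 units in the control (1.56-fold higher), with 3.05-fold, 1.58-fold and a log2 ratio of -0.16 on its other probe sets. The receptors Tgfbr1 and Tgfbr2 had log2 ratios of 0.18 and -0.11. Ccn2, a target of the pathway, read 43.6 units after CCR4b RNAi and 63.5 units in the control (log2 ratio -0.54). Scaling the arrays to equal medians put the ratios of Tgfb2, Hspg2, Col1a1 and Col5a2 below 1.5-fold (log2 ratios of 0.55, 0.54, 0.51 and 0.51), and a floor at the 75th percentile did so for Col11a1 (0.48) and Mmp9 (-0.55).

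**Figure D3:**
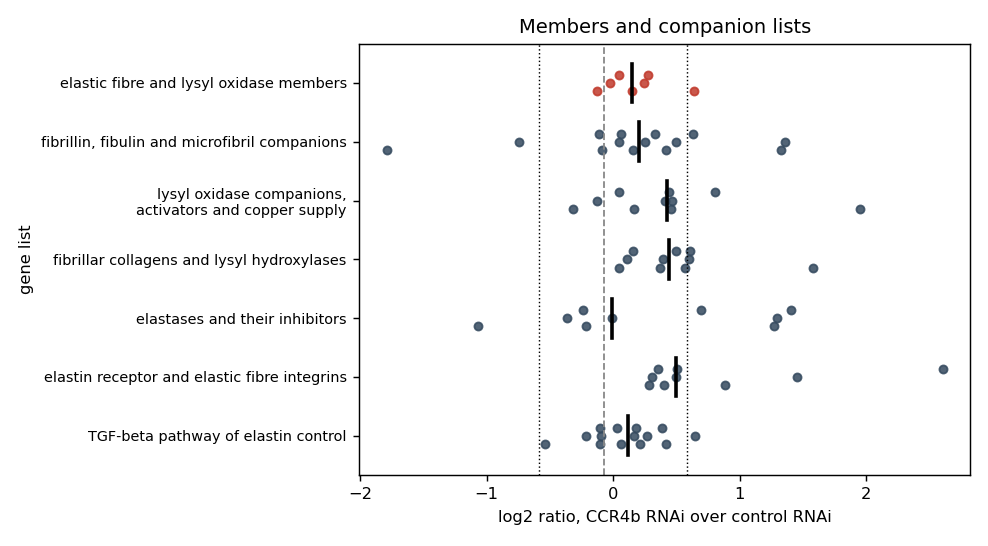
Log2 ratio of CCR4b RNAi over control RNAi for each measured gene, 1 point per gene (1 array per group), in the member set (top row) and the 6 companion lists. Thick bars are medians, the dashed line is the median of all measured genes (-0.070) and dotted lines mark 1.5-fold. The members span -0.13 to 0.64, and the medians of the collagen and receptor lists are 0.44 and 0.50.

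The plot of member ratios under each processing setting shows how far each value depended on the scaling, the floor and the choice of probe set. Mfap5 and Fbln5 stayed above 0 in all 11 settings, at 0.15 to 0.41 and 0.18 to 0.45, and Eln stayed below 0 in the 10 settings in which it was measured. The Eln sign comes from 1 dim probe set, at 12.4 units after CCR4b RNAi and 13.6 units in the control. Fbln2 ranged from 0.54 to 0.83 and was at least 1.5-fold higher in 10 of 11 settings, the exception being the scaling to equal medians. These counts of settings do not measure stability. For Mfap5, Fbln2 and Fbln5, several settings could only return the reported value, because their probe sets are bright. Those were both other floors, leaving out _x_at and _s_at probe sets, and choosing the probe set on floored signals.

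**Figure D4:**
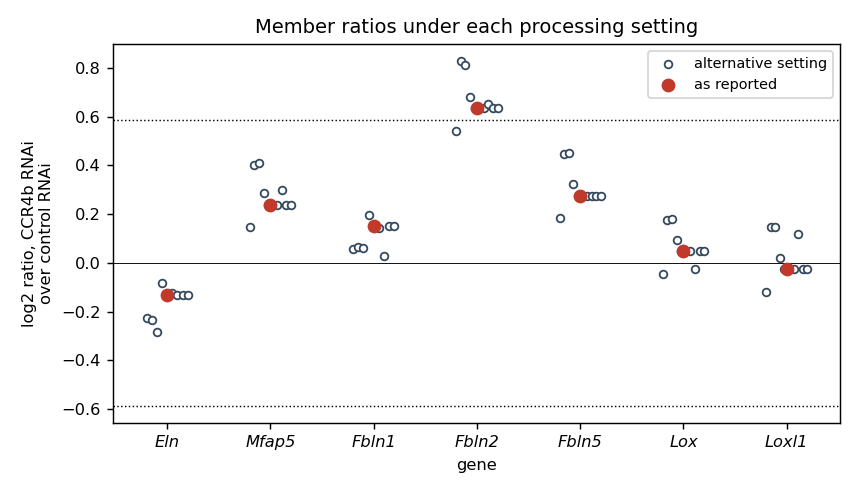
Log2 ratio of CCR4b RNAi over control RNAi for the 7 measured members as reported (filled points) and under each alternative setting (open points). Dotted lines mark 1.5-fold. Fbln2 is below the upper dotted line in 1 setting, and the points of Lox and Loxl1 lie on both sides of 0.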

How the data were processed

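The authors used GCOS and a global normalization to obtain 1 intensity per probe set, per the series design text. The deposited values are these intensities on a linear scale, all above 0. Neither the GCOS version nor the scaling target is given in the sources used here. The array number limits the precision, since each group is 1 array. Groups were taken from the knockdown label.

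Here, probe sets with 1 symbol in the platform annotation were used (34958 of 45101, with 932 holding several symbols and 9211 unlisted). Signals below the floor, the 50th percentile of all values, were raised to it, and log2 ratios were computed with Python 3.11.15, numpy 2.4.6 and pandas 2.3.3. Thresholds were 1.5-fold and 2-fold. The spread is the robust SD in 10 classes of mean signal. The procedure was tested on simulated data, with changes larger than that of any measured member placed in genes well above the floor. That test did not cover smaller differences or signals near the floor. All members were described, with companion genes at least 1.5-fold different, up to 4 per direction and list; further companion genes within 1.5-fold are given as values and were picked after their values were seen. No gene was named for a like pattern, since 2 arrays give none. The members and lists were chosen with earlier results of these data known.

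The alternatives were 4 scalings (array median, quantile, loess with span 0.3, and 18 spike-in probe sets), a lower floor (25th percentile), a higher one (75th), log2 of signal plus 1 with no floor, the median over probe sets, and leaving out _x_at and _s_at probe sets. Choosing the probe set on floored signals was added after seeing the data.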

Additional observations from a re-analysis of the deposited data

How the results depend on the processing

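With 1 array per group no spread between cultures is known, and signals near the floor limit what can be said of Eln, Fbln1 and Mfap2. No paired analysis was possible because each group holds 1 array. The members' median log2 ratio stayed above 0 in all settings (0.056 to 0.24). The number of members at least 1.5-fold higher was 0 with each array divided by its median, where Fbln2 had 0.54, and 2 with the floor at the 25th percentile, where 1 was at least 2-fold higher. That second member was Mfap2 on its cross-hybridising probe set (log2 ratio 1.02). With the median over measured probe sets, without _x_at and _s_at probe sets, and with the probe set chosen on floored signals, 1 member was at least 1.5-fold lower, again Mfap2 (-0.94, a bound). Its direction thus depended on the probe set used. Over all measured genes, the floor at the 25th percentile gave 3222 genes higher and 3516 lower by 1.5-fold or more, and 1787 higher and 1791 lower by 2-fold or more. The floor at the 75th percentile gave 472, 1025, 126 and 265 such genes, with fewer genes measured. Without a floor, 901 genes were at least 2-fold higher and 924 lower. Scaling moved the median of all genes by at most 0.088 log2 units. Among the 19 companion genes past 1.5-fold, 12 stayed past it in every setting that measured them, and of 187 values 176 did. That share does not measure stability. For bright genes such as Mmp2 and Slpi, the other floors and the choice on floored signals could only return the reported value, as could leaving out _x_at and _s_at probe sets. Quantile and loess normalization each raised the number at least 1.5-fold higher to 4 in the lysyl oxidase list, 5 in the collagen list and 5 in the receptor list (2, 3 and 3 as reported). Itga5 turned to -0.21 without _x_at and _s_at probe sets, where another probe set stood for it. The number of elastases and inhibitors at least 1.5-fold lower (1 as reported) was 3 with the floor at the 25th percentile, and 0 with that at the 75th or with the median over probe sets.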
